A study of Homo sapiens with 24 samples.

Results

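DUSP1, DUSP2, DUSP4, DUSP5, DUSP6, DUSP7, DUSP8, DUSP10 and DUSP16 encode dual-specificity phosphatases of the MAP kinase phosphatase family. These 9 genes were taken by their GENCODE v29 symbols from the 57500 genes of the RNA-Seq count tables, and all of them were present. Their mRNA was followed in FaDu and SAS spheroids, which are multicellular aggregates of established human head and neck squamous cell carcinoma (HNSCC) lines. The comparisons addressed how hyperthermia (HT), irradiation (RT) and HT + RT changed these mRNAs, and whether the 2 spheroid types differed.

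Each spheroid type was studied in 4 groups of 3 libraries: untreated control spheroids kept in parallel without heating, RT alone, HT alone and HT + RT. A single RT dose was given, which was 10 Gy in SAS and 7 Gy in FaDu spheroids. HT was 42.5 °C for 60 min in both, RT followed HT in the combination, and RNA was taken 0.5 h after treatment. FaDu was a subline of the commonly distributed FaDu line and the spheroids held tumor cells only. Doses thus differed between FaDu and SAS spheroids, and dose and spheroid type cannot be told apart wherever RT is compared between them. The methods describe the replicates as 3 independent experiments.

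MAP kinases are switched on by dual phosphorylation of a threonine and a tyrosine in their activation loop, and MAP kinase phosphatases remove both phosphates. ERK is the branch that mitogens mainly use, and JNK and p38 are the branches that stress such as heat mainly uses. Several phosphatase genes are themselves switched on by MAP kinase signaling, so their mRNA is widely read as negative feedback. The members fall into 3 groups. DUSP1, DUSP2, DUSP4 and DUSP5 are inducible phosphatases of the nucleus, and DUSP5 there acts on ERK. DUSP6 and DUSP7 are cytoplasmic phosphatases with a preference for ERK. DUSP8, DUSP10 and DUSP16 prefer JNK and p38.

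The files list the members as ENSG00000120129 (DUSP1), ENSG00000158050 (DUSP2), ENSG00000120875 (DUSP4), ENSG00000138166 (DUSP5), ENSG00000139318 (DUSP6), ENSG00000164086 (DUSP7), ENSG00000184545 (DUSP8), ENSG00000143507 (DUSP10) and ENSG00000111266 (DUSP16). In GENCODE v29 all are protein coding. DUSP1 lies on chromosome 5, DUSP2 on 2, DUSP4 on 8, DUSP5 on 10, DUSP6 and DUSP16 on 12, DUSP7 on 3, DUSP8 on 11 and DUSP10 on 1. Summed over the 24 libraries, the members held from 1410 counts (DUSP8) to 86688 counts (DUSP1), so DUSP8 is the member with the coarsest values.

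Because DUSP1 and DUSP8 rose with HT in both spheroid types, the sequence just before their start is printed here beside that of a member that also rose, DUSP2, and of one that fell in SAS spheroids, DUSP6. These are the 250 bases before the RefSeq transcription start, on build GRCh38.p14, read 5′ to 3′ on the minus strand that carries all 4 genes. Capitals mark the cAMP response element (CRE), TGACGTCA, which is bound by CREB and ATF family factors, and its short core TGACG on either strand.
DUSP1: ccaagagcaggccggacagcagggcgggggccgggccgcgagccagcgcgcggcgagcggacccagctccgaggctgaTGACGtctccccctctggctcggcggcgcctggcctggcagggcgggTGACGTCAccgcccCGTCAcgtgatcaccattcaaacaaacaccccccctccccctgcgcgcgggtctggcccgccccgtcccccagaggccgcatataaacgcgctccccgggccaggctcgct
DUSP8: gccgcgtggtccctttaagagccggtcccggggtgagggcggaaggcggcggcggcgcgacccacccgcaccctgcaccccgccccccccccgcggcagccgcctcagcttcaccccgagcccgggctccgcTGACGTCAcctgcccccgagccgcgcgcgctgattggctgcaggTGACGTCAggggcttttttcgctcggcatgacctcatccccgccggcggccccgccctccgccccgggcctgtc
DUSP2: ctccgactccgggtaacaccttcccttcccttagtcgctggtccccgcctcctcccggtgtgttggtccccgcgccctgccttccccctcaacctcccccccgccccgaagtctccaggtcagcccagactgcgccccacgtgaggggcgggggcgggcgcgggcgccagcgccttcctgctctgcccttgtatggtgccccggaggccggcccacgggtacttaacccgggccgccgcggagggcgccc
DUSP6: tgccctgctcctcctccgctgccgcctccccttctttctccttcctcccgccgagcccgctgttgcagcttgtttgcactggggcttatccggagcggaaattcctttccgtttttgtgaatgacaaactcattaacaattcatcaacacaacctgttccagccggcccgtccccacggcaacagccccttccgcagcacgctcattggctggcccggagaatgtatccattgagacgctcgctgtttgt

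The DUSP1 stretch is chr5:172771196-172771445, the DUSP8 stretch chr11:1572272-1572521, the DUSP2 stretch chr2:96145441-96145690 and the DUSP6 stretch chr12:89352502-89352751. DUSP1 held 1 full CRE, whose first base was at -125 from the start, and 2 further cores that began at -172 and -111. DUSP8 held 2 full CREs, with first bases at -118 and -74. No full CRE and no core was found before DUSP2, DUSP6, DUSP7, DUSP10 (2 starts) or DUSP16. The search covered 7 of the 9 members. No entry was used for DUSP5, and entries on chromosome 8, where DUSP4 lies, were left out of the search. Whether these letters precede DUSP4 or DUSP5 was therefore not examined. Among all 35116 RefSeq promoters of the same length, 1.65% held the full CRE and 21.2% held the core, which also counts every full CRE. These shares were not matched for base content. G and C made up 74.4% of the DUSP1, 76.8% of the DUSP8, 74% of the DUSP2 and 57.2% of the DUSP6 stretch. The median over all promoters was 58%. On both strands, the AP-1 site TGANTCA was in 6.57% of promoters, the heat shock element pairs GAANNTTC and TTCNNGAA in 5.78% and 6.62%, the triplet of GAANNTTC followed by NNGAA in 0.441%, and the CArG box in 1.16%. None of these other letters was found before any of the 7 members, which says nothing about the factors themselves or about sites elsewhere.

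**Figure D1:**
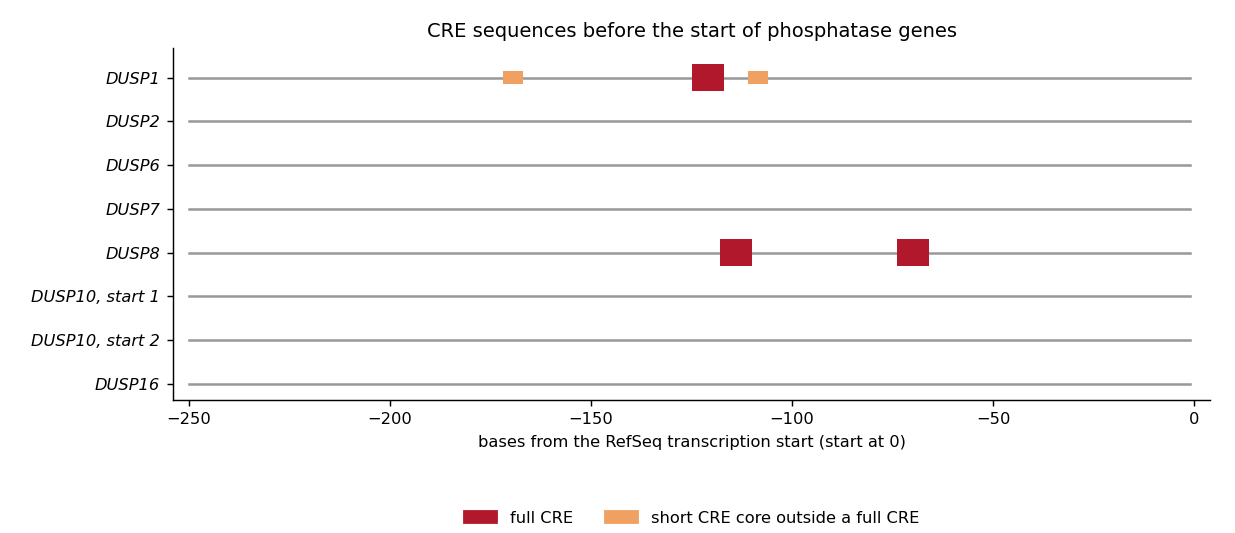
Positions of CRE letters in the 250 bases before the RefSeq start, with the distance from the start in bases on the x axis and 1 line per promoter entry. Red boxes are full CREs and orange boxes are cores outside a full CRE, and boxes stand only on the lines of DUSP1 (full CRE from -125) and DUSP8 (full CREs from -118 and -74).

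Total counts per library ranged from 15203484 to 29452514. The heated libraries were set apart from the unheated ones by the stress-inducible Hsp70 gene HSPA6, at 1590 to 4980 CPM after HT or HT + RT and 0.234 to 1.75 CPM in control and RT libraries. CPM is the read count normalised to library size, here with TMM scaling over all 24 libraries. All 8 squamous epithelial markers (KRT5, KRT6A, KRT14, KRT17, TP63, SFN, DSP and EPCAM) were at or above a median of 1 CPM in both spheroid types. Of the fibroblast markers only COL1A1 was, and in SAS spheroids it lay at 0.969 to 1.82 CPM in unheated and 16.5 to 31.4 CPM in heated libraries, while the other 5 markers stayed at or under 0.789 CPM in every library. Leukocyte markers summed to 6.01 to 10.9 CPM and endothelial markers to 6.1 to 23.5 CPM. Of 6 leukocyte markers CD68 and CD14, and of 4 endothelial markers VWF and CDH5, had a median of at least 1 CPM in both spheroid types. In bulk RNA, fewer cells of a kind and less RNA per cell cannot be told apart.

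Before treatment, the 2 spheroid types carried different sets of phosphatase mRNA. Control SAS spheroids held more DUSP1, DUSP2, DUSP5, DUSP6 and DUSP10 than control FaDu spheroids, and FaDu spheroids held more DUSP8 and DUSP16. DUSP4 (0.15, adjusted p = 0.71, edgeR) and DUSP7 (-0.01, adjusted p = 0.95, edgeR) did not pass, and DUSP7 passed at -0.23 without FaDu control replicate 1. In all, 7 of 9 members were altered, which here means a log2 fold change beyond 1 in either direction with an adjusted p under 0.05 in edgeR's quasi-likelihood test. Of these, 2 were higher and 5 lower in FaDu spheroids. In the same comparison 38.1% of all 15810 genes tested were altered, 21.2% higher and 16.9% lower in FaDu spheroids.

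DUSP6, a cytoplasmic ERK phosphatase, differed most on the CPM scale. It stood at 17.8, 5.36 and 6.04 CPM in FaDu controls and at 166, 186 and 152 CPM in SAS controls. Every SAS library was far above every FaDu library, and FaDu replicate 1 was well above replicates 2 and 3. The log2 fold change of FaDu over SAS was -4.11 (standard error (SE) 0.33, adjusted p = 9.2e-07, edgeR), and -4.84 without FaDu control replicate 1.

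DUSP2, an inducible nuclear phosphatase, lay at 2.05, 2.09 and 1.64 CPM in FaDu and at 24.9, 32.3 and 36.6 CPM in SAS controls, a log2 fold change of -4.0 (SE 0.18, adjusted p = 1.1e-08, edgeR). DUSP1 lay at 11.9, 11.9 and 14.8 CPM in FaDu and at 67.6, 84.7 and 78.1 CPM in SAS controls, a log2 fold change of -2.54 (SE 0.11, adjusted p = 9.7e-09, edgeR). DUSP5, the nuclear ERK phosphatase, lay at 43.5, 42.9 and 46.4 CPM against 176, 185 and 123 CPM, a log2 fold change of -1.84 (SE 0.13). For none of these genes did the groups overlap. DUSP10 was also lower in FaDu controls, by a log2 fold change of -1.54 (SE 0.29, adjusted p = 6.6e-04, edgeR).

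DUSP8 and DUSP16 went the other way. DUSP8 had 12, 38 and 31 counts in FaDu controls and 2, 0 and 1 counts in SAS controls. The ratio of the summed DUSP8 counts, each relative to TMM-scaled library sizes, was 22.9, with an exact binomial 95% interval of 7.55 to 113 that covers counting error only. The edgeR adjusted p was 2.1e-04, and the fitted log2 fold change of 4.39 was 5.21 without SAS control replicate 1. DUSP16 was at 12.5 ± 1.34 CPM (SD, n = 3) in FaDu and 6.39 ± 0.88 CPM in SAS controls, a log2 fold change of 1.0 (SE 0.15, adjusted p = 1.1e-04, edgeR). Its size sat on the threshold of 1, and the call was lost without FaDu control replicate 3 (0.93) and without SAS control replicate 2 (0.97) or replicate 3 (0.90), at adjusted p values from 5.1e-04 to 9.5e-04. It was also lost with all 24 libraries in 1 fit (0.97) and without the low-count filter, where the value stayed at the threshold.

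Within a spheroid type, levels were ordered per kilobase of GENCODE exon sequence. In FaDu controls DUSP7 (19 ± 4.93 CPM per kb) and DUSP5 (16.9 ± 0.735) came first with overlapping libraries, DUSP1 (6.38 ± 0.826) and DUSP4 (4.77 ± 2.49) followed, and DUSP8 (0.278 ± 0.142) came last. In SAS controls DUSP5 (61.7 ± 12.9 CPM per kb) stood clear of the other members, and DUSP1 (38 ± 4.26) and DUSP6 (36.2 ± 3.65), whose libraries overlapped, came next. After HT, DUSP1 led in both spheroid types, at 168 ± 16.8 CPM per kb in FaDu and 133 ± 14.1 in SAS spheroids. DUSP5 and DUSP2 followed in FaDu spheroids, at 64.9 ± 12.3 and 30.3 ± 6.82 CPM per kb. In SAS spheroids DUSP2 (108 ± 12.9) and DUSP5 (97.9 ± 20.7) followed with overlapping libraries. After HT + RT, DUSP16 (2.27 ± 0.573), DUSP8 (2.14 ± 0.405) and DUSP6 (1.86 ± 0.612 CPM per kb) had the lowest means in FaDu spheroids, with overlapping libraries, and DUSP6 was at 14.3 ± 3.03 CPM per kb in SAS spheroids.

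**Figure D2:**
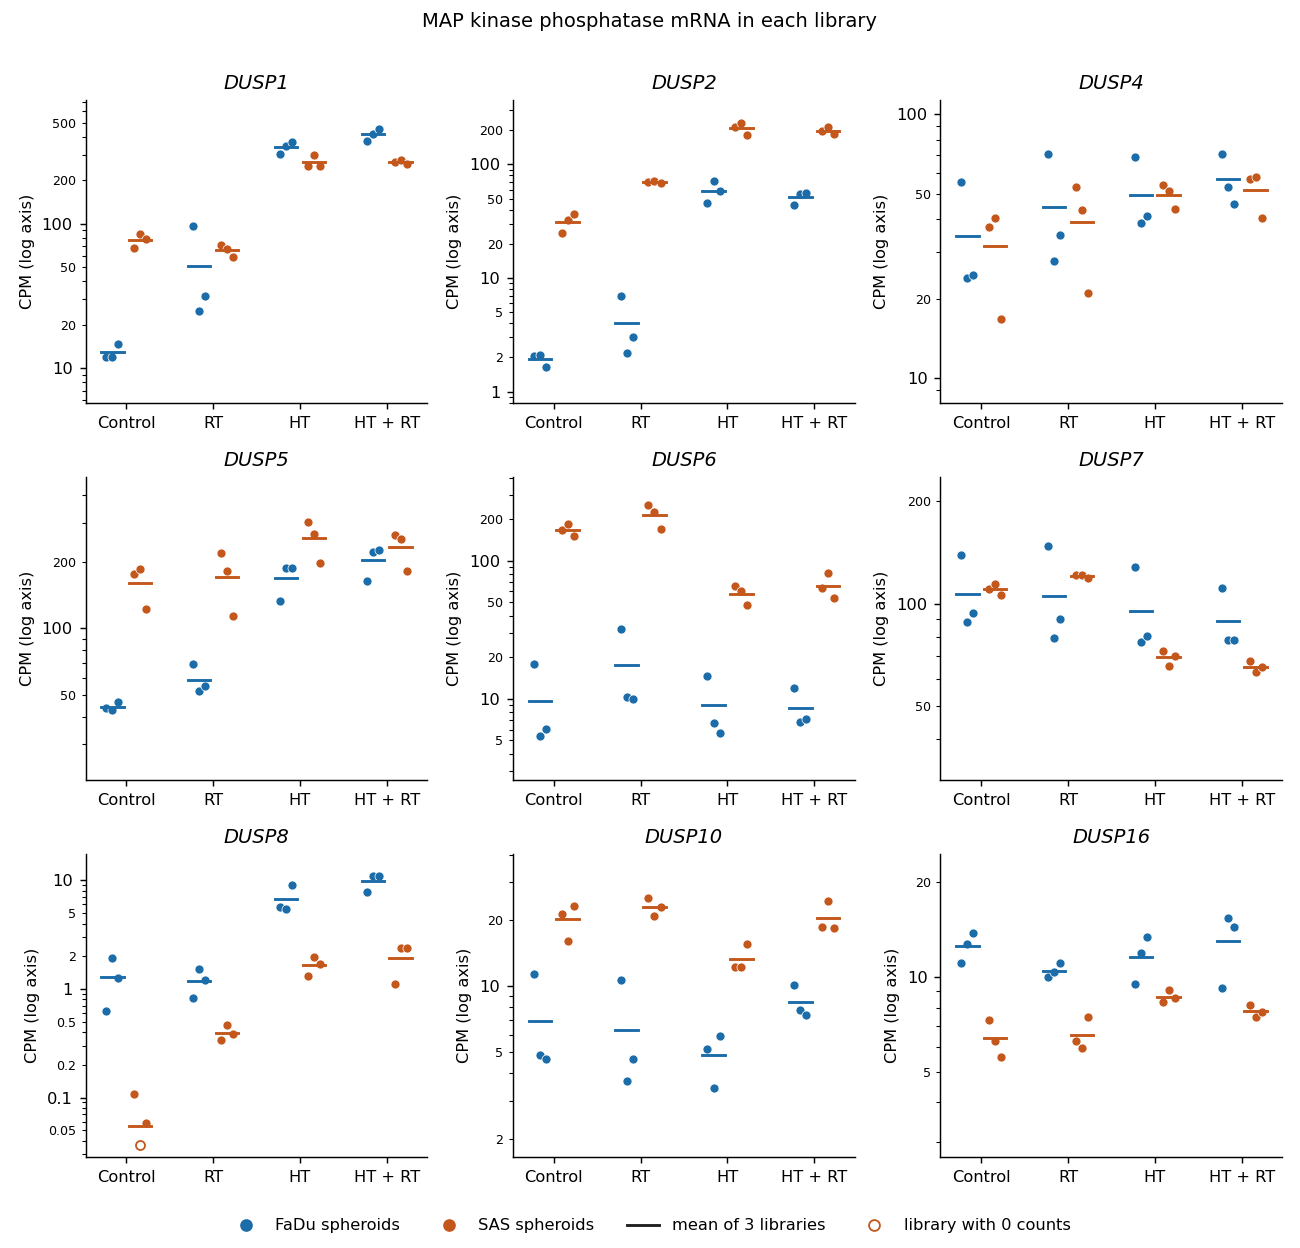
CPM of each member in every library on a log axis, by treatment, with FaDu spheroids in blue, SAS spheroids in orange and a bar at the mean of 3 libraries. DUSP1 runs from 11.9 to 14.8 CPM in FaDu controls to 302 to 369 CPM after HT, DUSP6 drops from 152 to 186 CPM to 47.6 to 65.7 CPM in SAS spheroids, and the open circle is the SAS control library with 0 counts of DUSP8.

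HT raised DUSP1, DUSP2 and DUSP5, 3 of the 4 inducible nuclear phosphatases, in both spheroid types. In FaDu spheroids DUSP1 rose 26.6-fold, DUSP2 31.0-fold and DUSP5 3.89-fold, and DUSP8 rose 5.33-fold. In SAS spheroids DUSP1 rose 3.50-fold, DUSP2 6.71-fold and DUSP5 1.59-fold, DUSP8 rose from near 0, and DUSP6 fell to 0.346 of its control level. HT altered 4 of 9 members in FaDu spheroids, all upward, where 4.97% of 15879 genes were altered and 4.29% were altered upward. It altered 4 of 9 members in SAS spheroids, 3 upward and 1 downward, where 6.03% of 15000 genes were altered, 5.31% upward and 0.713% downward. At the adjusted p alone, 4 members passed in FaDu (17.6% of all genes) and 8 in SAS spheroids (23.6% of all genes). The median log2 fold change of the members was 0.54 in FaDu and 0.66 in SAS spheroids, against 0.01 and 0.00 over all genes tested.

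DUSP1 stood at 302, 347 and 369 CPM in heated FaDu spheroids, up from 11.9, 11.9 and 14.8 CPM in controls. Its log2 fold change was 4.73 (SE 0.13, adjusted p = 1.0e-07, edgeR). In SAS spheroids it stood at 250, 301 and 253 CPM after HT, a log2 fold change of 1.81 (SE 0.09, adjusted p = 6.6e-08, edgeR). The highest heated SAS library, 301 CPM, lay just under the lowest heated FaDu library, 302 CPM. The change was larger in FaDu spheroids, with a difference between the 2 log2 fold changes of 2.95 (SE 0.16, edgeR interaction, adjusted p = 1.2e-07).

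DUSP2 stood at 45.8, 72.1 and 57.9 CPM in heated FaDu spheroids, a log2 fold change of 4.95 (SE 0.20, adjusted p = 1.8e-06, edgeR). In SAS spheroids it stood at 212, 232 and 183 CPM, a log2 fold change of 2.75 (SE 0.13, adjusted p = 2.3e-08, edgeR). Heated SAS libraries lay above all heated FaDu libraries, as in the controls. The change was again larger in FaDu spheroids, by 2.24 (SE 0.27, edgeR interaction, adjusted p = 1.4e-04).

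DUSP5 stood at 133, 188 and 188 CPM in heated FaDu spheroids, a log2 fold change of 1.96 (SE 0.14, adjusted p = 5.2e-05, edgeR). In SAS spheroids it stood at 303, 267 and 197 CPM, a log2 fold change of 0.67 (SE 0.16, adjusted p = 0.0087, edgeR), which passed without reaching the fold threshold. The lowest heated SAS library, 197 CPM, was only just above the highest control, 185 CPM. The change was larger in FaDu spheroids by 1.32 (SE 0.24, edgeR interaction, adjusted p = 0.0038). Of 9 members tested for a difference between spheroid types in the HT change, these 3 were called, where 2.74% of 17219 genes were called and 1.25% were called in that direction.

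DUSP4, the remaining nuclear member, did not pass after HT. It had 55.5, 24 and 24.5 CPM in FaDu controls and 68.9, 38.8 and 41 CPM after HT, so replicate 1 was highest in both groups and each heated library exceeded its same-numbered control. Its log2 fold change was 0.54 (SE 0.33, adjusted p = 0.32, edgeR). With the replicate numbers entered as a block it was 0.59 (SE 0.09, adjusted p = 8.4e-05, edgeR), in a fit where 32.7% of all genes passed, and without FaDu control replicate 1 it was 1.04 (adjusted p = 0.019, edgeR). In SAS spheroids DUSP4 went from 37.3, 40.6 and 16.7 CPM to 54, 51.1 and 43.7 CPM, a log2 fold change of 0.66 (SE 0.23, adjusted p = 0.06, edgeR). That value passed at 0.87 without SAS control replicate 2 and at 0.35 without SAS control replicate 3, both with an edgeR adjusted p of 0.022.

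The cytoplasmic ERK phosphatases fell in SAS spheroids. DUSP6 fell from 166, 186 and 152 CPM to 65.7, 60.7 and 47.6 CPM, a log2 fold change of -1.53 (SE 0.11, adjusted p = 1.0e-06, edgeR). No heated library reached as much as any control. DUSP7 fell from 110, 114 and 106 CPM to 72.8, 65.5 and 70.3 CPM, a log2 fold change of -0.66 (SE 0.06, adjusted p = 1.8e-05, edgeR). In FaDu spheroids, DUSP6 had a log2 fold change of -0.09 (SE 0.49) and DUSP7 of -0.15 (SE 0.22), with edgeR adjusted p values of 0.93 and 0.69. With the replicate block DUSP7 passed in FaDu spheroids at -0.16 (SE 0.05, adjusted p = 0.029, edgeR). The difference between spheroid types in the HT change of DUSP6 was 1.48 (SE 0.50, edgeR interaction, adjusted p = 0.11) and did not pass. It was 2.21 (adjusted p = 0.0017, edgeR) without FaDu control replicate 1, the highest FaDu control library for DUSP6. DUSP7, at a difference of 0.53 (adjusted p = 0.27, edgeR), passed without that library too, at 0.76 (adjusted p = 0.048, edgeR).

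Of the JNK and p38 phosphatases, DUSP8 rose in both spheroid types. In FaDu spheroids it went from 0.631, 1.94 and 1.27 CPM to 5.7, 5.48 and 9.12 CPM, a log2 fold change of 2.41 (SE 0.36, adjusted p = 0.0027, edgeR). In SAS spheroids its counts went from 2, 0 and 1 to 23, 37 and 31. The ratio of summed counts relative to TMM-scaled library sizes was 29.5 (exact binomial 95% interval 9.8 to 146), and the edgeR adjusted p was 8.9e-05. The fitted log2 fold change of 4.72 (SE 0.57) depends on how the fit treats so few control counts, and it was 5.53 without SAS control replicate 1. SAS spheroids after HT, at 1.33 to 1.95 CPM, overlapped with FaDu controls at 0.631 to 1.94 CPM and lay below all heated FaDu libraries.

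DUSP10 and DUSP16, which prefer JNK and p38 too, had smaller changes. In SAS spheroids DUSP10 fell from 21.5, 16.1 and 23.3 CPM to 12.2, 12.3 and 15.6 CPM, a log2 fold change of -0.59 (SE 0.15, adjusted p = 0.014, edgeR). The edgeR adjusted p was 0.053 without SAS control replicate 1 or SAS HT replicate 1, 0.061 without SAS HT replicate 2, and 0.16 with all 24 libraries in 1 fit. DUSP16 rose in SAS spheroids by a log2 fold change of 0.44 (SE 0.15, adjusted p = 0.049, edgeR). It no longer passed without SAS control replicate 2 or 3 or without any of the HT replicates, at edgeR adjusted p values from 0.076 to 0.15. The call was also lost with DESeq2 (adjusted p = 0.12), and in edgeR without the low-count filter (adjusted p = 0.07) or with all 24 libraries in 1 fit (adjusted p = 0.066). In FaDu spheroids the log2 fold changes were -0.49 (SE 0.36) for DUSP10 and -0.09 (SE 0.16) for DUSP16, and neither passed.

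**Figure D3:**
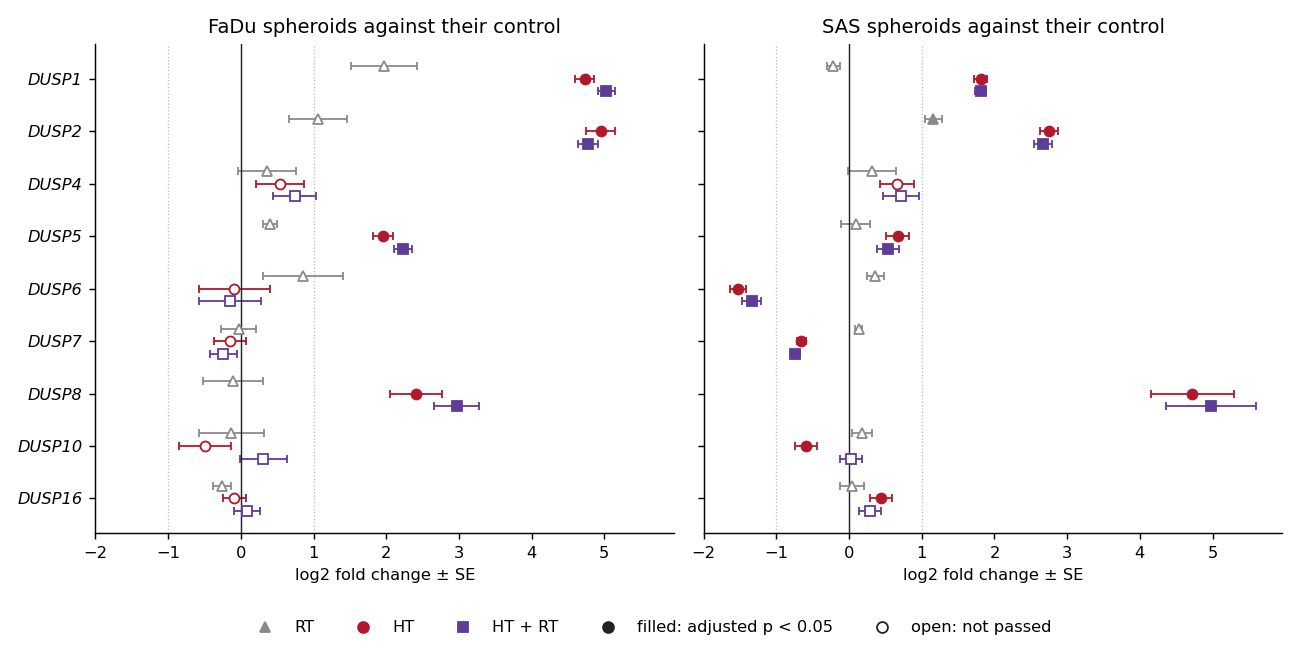
Log2 fold change of each member against the control of the same spheroid type, with bars of 1 SE, for RT (triangles), HT (circles) and HT + RT (squares). Filled symbols passed at an edgeR adjusted p under 0.05 and dotted lines mark the fold threshold, and the DUSP1 and DUSP2 points lie near 5 in FaDu and between 1.81 and 2.75 in SAS spheroids after heating.

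HT + RT against control gave a like picture, but this comparison shares its controls with HT against control. DUSP1 stood at 375, 420 and 451 CPM in FaDu and at 268, 275 and 259 CPM in SAS spheroids. The combination altered DUSP1, DUSP2, DUSP5 and DUSP8 upward in FaDu spheroids, 4 members, where 5.72% of 15896 genes were altered and 5.08% upward. In SAS spheroids it altered 3 members upward (DUSP1, DUSP2 and DUSP8) and 1 downward (DUSP6), where 6.36% of 14938 genes were altered, 5.76% upward and 0.596% downward. DUSP4 in FaDu spheroids had a log2 fold change of 0.74 (SE 0.30, adjusted p = 0.13, edgeR), which was 0.80 (SE 0.10, adjusted p = 1.9e-07, edgeR) with the replicate block, in which 32.9% of genes passed. It was 1.24 (adjusted p = 0.0018, edgeR) without FaDu control replicate 1. DUSP10, at 0.31 (adjusted p = 0.57, edgeR), was at 0.84 (adjusted p = 0.014, edgeR) without that library. In SAS spheroids DUSP4 had 0.71 (SE 0.25, adjusted p = 0.056, edgeR) and, with the block, 0.76 (SE 0.10, adjusted p = 1.0e-06, edgeR), where 35.5% of genes passed. The unblocked DUSP4 value passed at 0.93 without SAS control replicate 2, at 0.41 without SAS control replicate 3 and at 0.87 without SAS HT + RT replicate 3. The fitted DUSP8 value of 4.98 was 5.78 without SAS control replicate 1. The log2 fold changes of the altered members were 5.03 for DUSP1, 4.78 for DUSP2, 2.23 for DUSP5 and 2.97 for DUSP8 in FaDu spheroids, and 1.81 for DUSP1, 2.67 for DUSP2 and -1.34 for DUSP6 in SAS spheroids.

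At the adjusted p alone, which 25.1% of genes passed, HT + RT against control called 6 members in SAS spheroids, 4 upward and 2 downward. DUSP7 fell by 0.74 on the log2 scale (SE 0.06, adjusted p = 4.5e-06, edgeR), while in FaDu spheroids it was at -0.24 (SE 0.19, adjusted p = 0.44, edgeR) and, with the block, at -0.23 (SE 0.06, adjusted p = 0.0027, edgeR). DUSP6 and DUSP16 did not pass in FaDu spheroids, at -0.15 and 0.08, nor did DUSP10 and DUSP16 in SAS spheroids, at 0.03 and 0.29. DUSP5 rose in SAS spheroids by 0.54 (SE 0.15, adjusted p = 0.024, edgeR), but not without SAS HT + RT replicate 1 or 2, at edgeR adjusted p values of 0.11 and 0.081. This call was also lost with DESeq2 (adjusted p = 0.12) and with all 24 libraries in 1 edgeR fit (adjusted p = 0.071). The differences between spheroid types were 3.26 for DUSP1, 2.14 for DUSP2 and 1.73 for DUSP5, with edgeR interaction adjusted p values of 2.3e-09, 1.6e-05 and 2.1e-04, where 3.4% of 17219 genes were called and 1.43% in that direction. With the replicate block, in which 15% of genes passed, DUSP6 and DUSP7 also passed this test, at 1.32 (SE 0.15, adjusted p = 4.7e-07, edgeR) and 0.55 (SE 0.08, adjusted p = 1.6e-05, edgeR). Without the block they were at 1.22 and 0.54 (edgeR adjusted p values of 0.13 and 0.16), and at 1.96 and 0.77 (edgeR adjusted p values of 3.9e-04 and 0.0079) without FaDu control replicate 1. DUSP4, DUSP8, DUSP10 and DUSP16 did not pass the test of this difference for HT + RT or for HT, with or without the block.

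The effect of HT was also measured in libraries that none of the HT against control values used, by comparing HT + RT with RT. The same 4 members were altered in each spheroid type as after HT alone: DUSP1, DUSP2, DUSP5 and DUSP8 upward in FaDu, and DUSP1, DUSP2 and DUSP8 upward and DUSP6 downward in SAS spheroids. Altered genes made up 5.39% of 15905 genes in FaDu spheroids, and 4.76% were altered upward. The share in SAS spheroids was 6.6% of 15125 genes, with 5.71% altered upward and 0.893% downward. In FaDu spheroids the log2 fold changes were 3.06 (SE 0.45) for DUSP1, 3.72 (SE 0.32) for DUSP2, 1.83 (SE 0.15) for DUSP5 and 3.08 (SE 0.25) for DUSP8, with edgeR adjusted p values from 1.3e-04 to 0.0024. The DUSP1 value was 3.90 without FaDu RT replicate 1, and DUSP2 was at 4.40 with both FaDu replicate 1 libraries left out. DUSP6 had -1.0 (SE 0.46, adjusted p = 0.17, edgeR) and fell with the replicate block, in which 31% of genes passed, at -0.86 (SE 0.18, adjusted p = 0.007, edgeR). DUSP4 rose with the block by 0.44 (SE 0.14, adjusted p = 0.042, edgeR). DUSP10, at 0.44 (adjusted p = 0.45, edgeR), reached 1.02 (adjusted p = 0.0096, edgeR) without FaDu RT replicate 1, as DUSP4 reached 0.86 (adjusted p = 0.014, edgeR). DUSP7 was at -0.21 and did not pass. DUSP16, at 0.34, reached 0.53 (adjusted p = 0.011, edgeR) without FaDu HT + RT replicate 1.

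In SAS spheroids the same comparison gave log2 fold changes of 2.02 (SE 0.07) for DUSP1, 1.50 (SE 0.06) for DUSP2 and 2.29 (SE 0.40) for DUSP8. DUSP6 fell by 1.71 on the log2 scale (SE 0.16, adjusted p = 1.1e-05, edgeR), and DUSP7 fell by 0.88 (SE 0.06, adjusted p = 5.8e-07, edgeR), where 27.8% of genes passed. DUSP6 thus went from 254, 224 and 170 CPM after RT to 63.6, 81.4 and 53.7 CPM after HT + RT, with no overlap. With the block, where 38.9% of genes passed, DUSP4 (0.45, adjusted p = 0.003, edgeR) and DUSP5 (0.47, adjusted p = 9.9e-06, edgeR) passed as well. Without the block DUSP5 passed when SAS HT + RT replicate 3 (0.59) or SAS RT replicate 1 (0.66) was left out. It also passed without the low-count filter at 0.42 (adjusted p = 7.5e-10, edgeR), against 0.44 (adjusted p = 0.12, edgeR) with the filter. DUSP10 (-0.17) and DUSP16 (0.25) did not pass with or without the block. DUSP2 changed less with HT in irradiated than in unirradiated SAS spheroids, 1.50 against 2.75, and that difference was not tested.

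**Figure D4:**
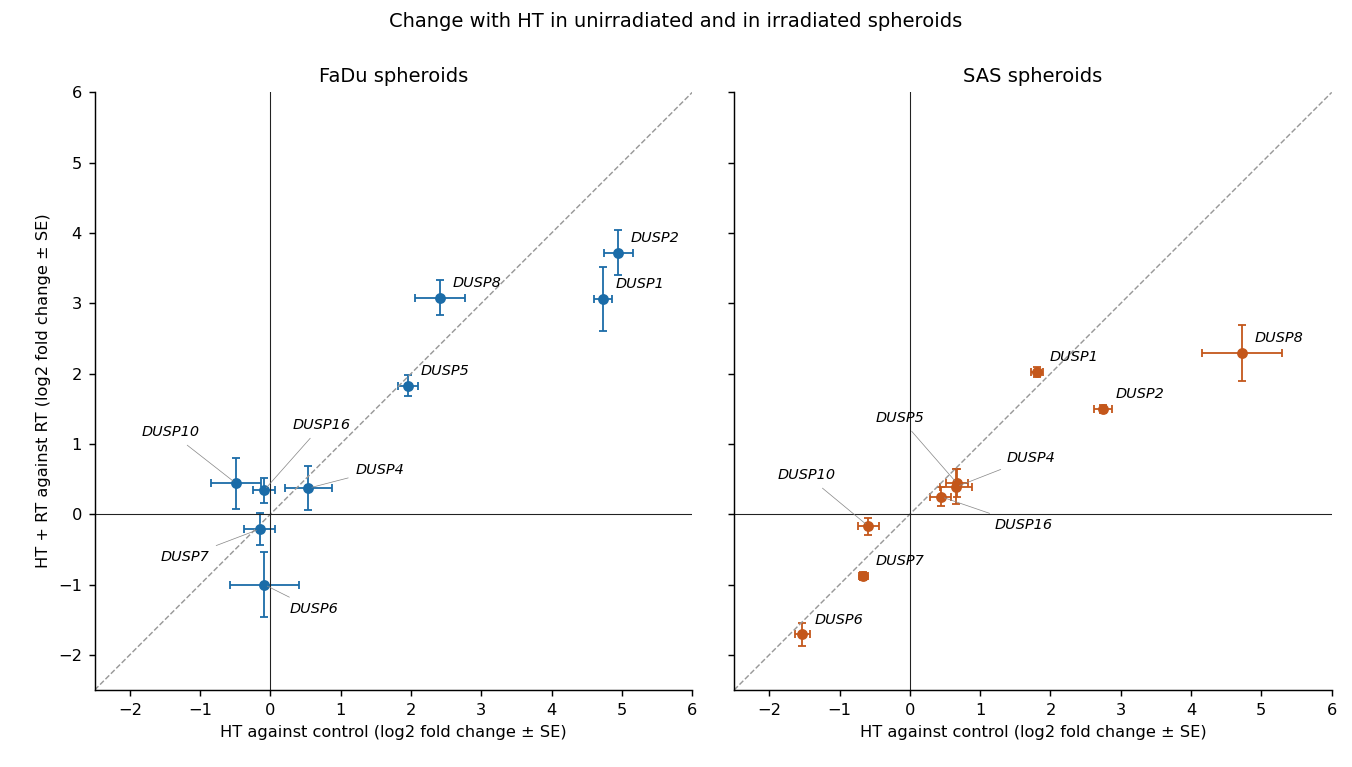
Log2 fold change with HT in unirradiated spheroids (HT against control, x axis) and in irradiated spheroids (HT + RT against RT, y axis), with bars of 1 SE and a dashed line of equality. The axes share no library, and DUSP1 and DUSP2 in FaDu and DUSP2 and DUSP8 in SAS spheroids lie farthest below the line.

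RT alone altered 1 member in SAS and 0 in FaDu spheroids by edgeR with each comparison fitted on its own 6 libraries. In SAS spheroids, the replicates of DUSP2 went from 24.9, 32.3 and 36.6 CPM to 70, 71.8 and 68 CPM, and all RT libraries lay above all controls. Its log2 fold change was 1.16 (SE 0.12, adjusted p = 0.0054, edgeR), and it was the only altered member among the 8 tested, where 0.0272% of 14680 genes were altered. The call was lost without SAS RT replicate 2 (1.14, adjusted p = 0.055, edgeR). In FaDu spheroids, edgeR altered 0 of 9 members and 0.00643% of 15552 genes. There, 4 members had an unadjusted p under 0.05 in edgeR, as had 791 of the 15552 genes. The DESeq2 Wald test altered 12 genes and also 0 members. With all 24 libraries in 1 fit, edgeR altered 1 member (DUSP1, adjusted p = 0.0032) among 12 altered genes. Without the low-count filter it altered 2 members among 28 altered genes. Of the members not described further, DUSP7, DUSP8, DUSP10 and DUSP16 had log2 fold changes of -0.26 to -0.03 in FaDu spheroids, and DUSP5, DUSP7, DUSP10 and DUSP16 of 0.04 to 0.18 in SAS spheroids.

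The FaDu replicates, however, differed in how far they moved. DUSP1 was at 11.9, 11.9 and 14.8 CPM in controls and at 96.4, 25 and 31.4 CPM after RT. It was higher after RT in 3 of 3 same-numbered pairs, by ratios of 8.11, 2.09 and 2.12, and replicate 1 stood apart. The log2 fold change was 1.97 (SE 0.46, adjusted p = 0.39, edgeR). With the replicate block it was 1.76 (SE 0.18, adjusted p = 8.2e-08, edgeR), and without FaDu RT replicate 1 it was 1.13 (adjusted p = 0.012, edgeR).

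With the block, 5 FaDu members passed, all upward, where 2.01% of all genes passed and 1.33% passed upward. Besides DUSP1 these were DUSP2 (0.98, SE 0.23, adjusted p = 0.018, edgeR), DUSP4 (0.36, SE 0.07, adjusted p = 0.0014, edgeR), DUSP5 (0.39, SE 0.07, adjusted p = 6.7e-04, edgeR) and DUSP6 (0.84, SE 0.10, adjusted p = 1.4e-06, edgeR). DUSP6 was at 17.8, 5.36 and 6.04 CPM in controls and at 32.3, 10.3 and 9.97 CPM after RT, and the paired ratios were 1.82, 1.93 and 1.65. DUSP2 rested mainly on replicate 1, with ratios of 3.36, 1.04 and 1.85, and it did not pass with both replicate 1 libraries left out (0.51, adjusted p = 0.63, edgeR). DUSP5 did not pass there either (0.26, adjusted p = 0.082, edgeR), whereas DUSP1 (1.07, adjusted p = 1.6e-08, edgeR), DUSP4 (0.38, adjusted p = 0.031, edgeR) and DUSP6 (0.82, adjusted p = 5.6e-04, edgeR) did.

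In SAS spheroids the block added DUSP6 (0.35, SE 0.06, adjusted p = 0.0012, edgeR) and DUSP4 (0.31, SE 0.08, adjusted p = 0.045, edgeR) to DUSP2, where 1.96% of all genes passed. DUSP6 was higher after RT in 3 of 3 pairs, by ratios of 1.53, 1.21 and 1.12. DUSP1 did not pass in SAS spheroids, at 71.5, 67.2 and 59 CPM after RT, a log2 fold change of -0.22 (SE 0.09, adjusted p = 0.84, edgeR). The difference between spheroid types in the RT change of DUSP1 was 2.19 (SE 0.50, edgeR interaction, adjusted p = 1). It was 1.99 (SE 0.26, adjusted p = 3.0e-04, edgeR) with the replicate block, in which 0.107% of genes passed, and 1.35 (adjusted p = 0.02, edgeR) without FaDu RT replicate 1. The interaction without the block called 0 of 9 members and 0% of 16811 genes. At an unadjusted p under 0.05 in edgeR there were 2 members and 460 of the 16811 genes. DESeq2 called 0 members and 1 gene over all. DUSP8 had too few counts to be tested for RT in SAS spheroids. It had 6, 9 and 7 counts after RT against 2, 0 and 1, a ratio relative to TMM-scaled library sizes of 7.08 (exact binomial 95% interval 2.13 to 36.9, counting error only).

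**Figure D5:**
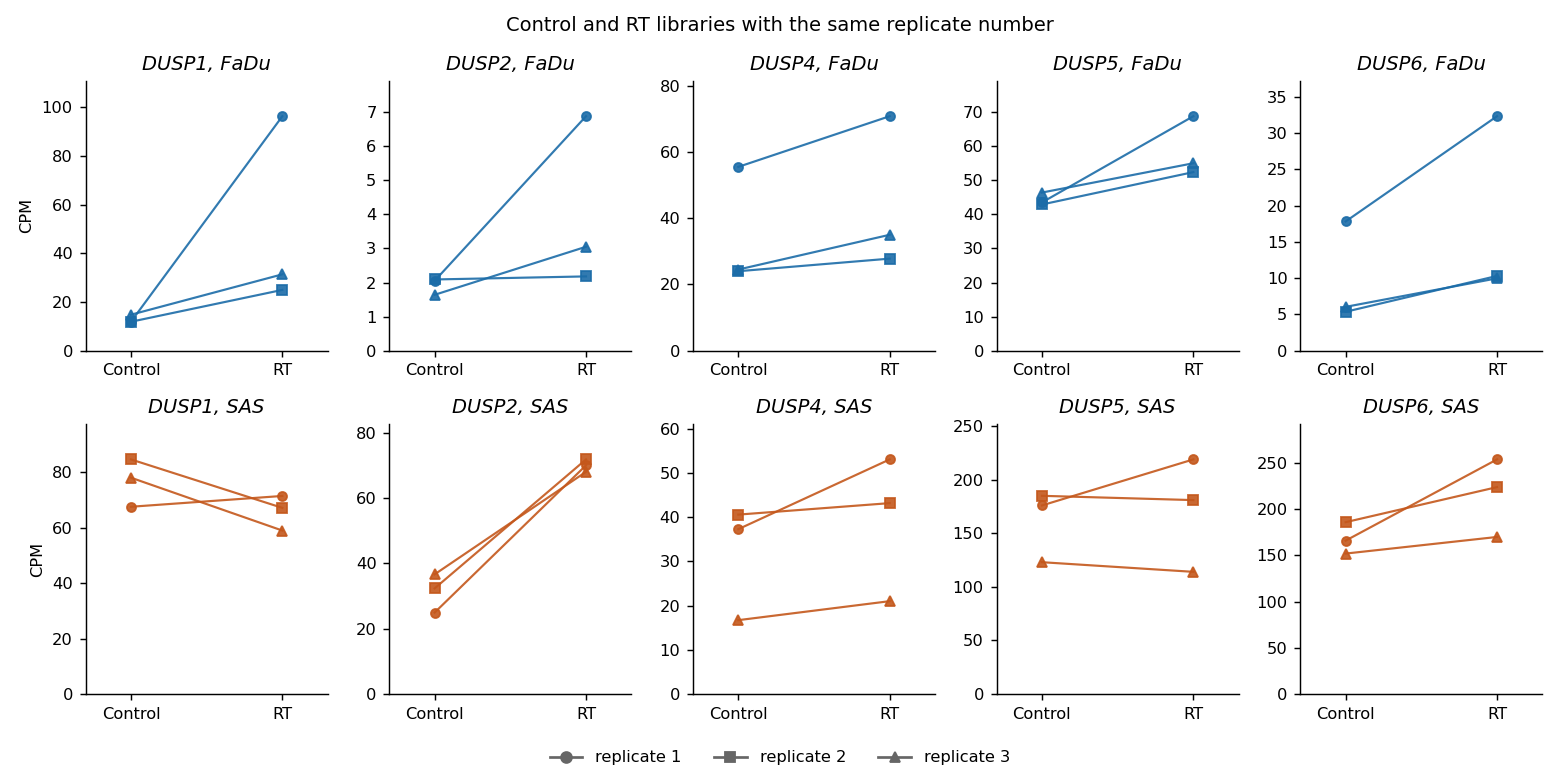
CPM of DUSP1, DUSP2, DUSP4, DUSP5 and DUSP6 in control and RT libraries, with lines joining the libraries that carry the same replicate number, FaDu spheroids above and SAS spheroids below. DUSP1 climbs in all 3 FaDu pairs, from 11.9 to 96.4 CPM in replicate 1, and DUSP2 climbs in all 3 SAS pairs to 68 to 71.8 CPM.

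The libraries with HT + RT and with HT were also compared directly. HT + RT against HT altered 0 of 9 members in each spheroid type by edgeR, 0 by DESeq2, and 0% of 16145 genes in FaDu and of 15341 genes in SAS spheroids. An unadjusted p under 0.05 in edgeR was reached by 3 members and by 361 of the 16145 genes for FaDu spheroids. For SAS spheroids it was reached by 1 member and by 673 of the 15341 genes. DUSP10, which acts on JNK and p38, was higher with RT in both. It was at 5.18, 3.44 and 5.9 CPM after HT and at 10.1, 7.8 and 7.4 CPM after HT + RT in FaDu spheroids, without overlap. In SAS spheroids it was at 12.2, 12.3 and 15.6 CPM after HT and at 18.7, 24.5 and 18.4 CPM after HT + RT, also without overlap. The log2 fold changes were 0.79 (SE 0.22, edgeR adjusted p = 1) and 0.61 (SE 0.14, adjusted p = 0.38, edgeR). With the replicate block they were 0.78 (SE 0.15, adjusted p = 0.0067, edgeR) and 0.61 (SE 0.12, adjusted p = 0.022, edgeR), where 0.954% and 0.906% of genes passed. DUSP10 after HT + RT was thus back within its control range in SAS spheroids in 2 of 3 libraries, at a log2 fold change of 0.03 (SE 0.15) against control.

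DUSP1 and DUSP5 also passed for HT + RT against HT in FaDu spheroids with the block, while without it both had an adjusted p of 1 in edgeR. DUSP1 was higher in each same-numbered pair by ratios of 1.24, 1.21 and 1.22 (log2 fold change 0.29, SE 0.04, adjusted p = 1.7e-04, edgeR). DUSP5 was higher by ratios of 1.24, 1.18 and 1.21 (log2 fold change 0.27, SE 0.04, adjusted p = 8.7e-04, edgeR). With both FaDu replicate 1 libraries left out, neither passed, at 0.28 for DUSP1 (adjusted p = 0.088, edgeR) and 0.25 for DUSP5 (adjusted p = 0.1, edgeR), nor did DUSP10, at 0.69 (adjusted p = 0.44, edgeR). In SAS spheroids DUSP1 and DUSP5 did not pass, at -0.01 (SE 0.07) and -0.14 (SE 0.15) without the block. The other members, DUSP2, DUSP4, DUSP6, DUSP7, DUSP8 and DUSP16, had log2 fold changes of -0.18 to 0.55 in FaDu and -0.16 to 0.25 in SAS spheroids, and none of them passed with or without the block.

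Several members shared an order of replicates across treatments. In all 4 FaDu groups replicate 1 was highest for DUSP4, DUSP6 and DUSP7, and replicate 3 was lowest in all 4 SAS groups for DUSP4, DUSP5 and DUSP6. Over all genes tested, FaDu libraries numbered 1 deviated from their group means against those numbered 2 or 3, with correlations across genes of -0.5 to -0.37. Deviations from a group mean cancel within the group. This sign therefore follows once same-numbered libraries correlate, and it is no separate evidence. What set these replicates apart was not tested.

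The remaining parts of the pathway were read from lists of MAP kinase regulators and outputs, beside shares over all genes after HT of 4.97% altered and 17.6% passed in FaDu and 6.03% altered and 23.6% passed in SAS spheroids. In a list with 16 genes tested, 1 altered gene is near these shares. None of the 10 MAP kinase genes tested in FaDu and the 9 tested in SAS spheroids was altered after HT. At the adjusted p alone, MAPK7 (ERK5) fell in both spheroid types, by 0.68 on the log2 scale in FaDu (adjusted p = 0.033, edgeR) and by 0.66 in SAS spheroids (adjusted p = 0.0035, edgeR), and MAPK14 (p38 alpha) fell by 0.20 in FaDu spheroids (adjusted p = 0.041, edgeR). Of 7 MAP kinase kinases, MAP2K4 fell in FaDu spheroids (-0.56, adjusted p = 0.0026, edgeR) and MAP2K3, an activator of p38, rose in SAS spheroids (0.74, adjusted p = 2.9e-05, edgeR). Of 16 MAP3 kinases tested, 1 was altered in FaDu spheroids, MAP3K8 at 1.23 (adjusted p = 0.012, edgeR), and 0 in SAS spheroids. At the adjusted p alone, 1 passed upward and 2 downward in FaDu spheroids, and 1 upward and 4 downward in SAS spheroids.

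Other phosphatases of the pathway were altered in neither spheroid type, and after RT no gene of these lists passed in the fit without the replicate block. Among DUSP9 and the atypical dual-specificity phosphatases, which mostly lack the MAP kinase docking domain, HT altered 0 of 12 tested in FaDu spheroids and 0 of 11 in SAS spheroids. DUSP3 and STYX passed downward in FaDu spheroids (-0.27 and -0.56), and STYX in SAS spheroids (-0.33). The median log2 fold change of this list was -0.09 in FaDu and 0.03 in SAS spheroids. Among 6 other phosphatases tested that act on MAP kinases, PPP2CB, a catalytic subunit of PP2A, passed in SAS spheroids at 0.83 (adjusted p = 8.9e-06, edgeR) and 0 were altered. DUSP8P5, a pseudogene of DUSP8, rose in FaDu spheroids from 5, 11 and 16 counts to 23, 30 and 33 counts and was at 24 to 31 counts in SAS controls and 25 to 36 after HT. Reads shared between DUSP8 and such copies could not be separated here.

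Downstream of the kinases, JUN, the transcription factor that JNK phosphorylates, was the only altered gene of 16 tested substrates and effector kinases after HT in FaDu spheroids, and of 15 after HT in SAS spheroids. At the adjusted p alone, 1 of these genes passed upward and 1 downward in FaDu spheroids, and 4 upward and 4 downward in SAS spheroids. JUN rose from 55 ± 10.8 to 547 ± 110 CPM (SD, n = 3) in FaDu spheroids, and in SAS spheroids from 119 ± 16.9 to 283 ± 29.4 CPM. After RT alone in FaDu spheroids JUN was at 153 ± 112 CPM and did not pass (1.47, SE 0.42, adjusted p = 0.59, edgeR without the block). Of 16 ERK feedback and output genes, 4 were altered upward in FaDu spheroids after HT, EGR1, IER3, FOSL1 and SPRY4. At the adjusted p alone, 5 passed upward and 3 downward in FaDu spheroids. EGR1 rose there from 93.1 ± 5.03 to 1560 ± 56.3 CPM, a log2 fold change of 4.09 (SE 0.07, adjusted p = 7.5e-09, edgeR). In SAS spheroids 1 was altered upward, SPRED3 (2.78, SE 0.24, adjusted p = 6.7e-06, edgeR), and 1 downward, IER3 (-1.59, SE 0.10, adjusted p = 3.0e-07, edgeR). At the adjusted p alone, 2 passed upward and 2 downward in SAS spheroids. EGR1 in SAS spheroids was at 504 ± 261 CPM before and 544 ± 22.4 CPM after HT. The median log2 fold change of these 16 genes was 0.33 in FaDu and -0.08 in SAS spheroids.

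The genes whose log2 (CPM + 1) ran most alike with a member over the 24 libraries were listed as a description, among 12884 genes whose average log2 CPM was 1 or more. All points share the 2 spheroid types and the heating, so any gene that follows these will correlate. DUSP1 ran closest to MCL1 (Pearson r = 0.96), ARC and IL6 (both 0.95). DUSP2 ran closest to GADD45B, GALNT9 and RASAL2-AS1 (all 0.97), and DUSP5 to AL390719.1 (0.96), HBEGF and GADD45B (both 0.95). DUSP6 ran closest to F3 and LNCAROD (both 0.98) and THBD (0.97), and DUSP8 to AVPI1 (0.97), TIGD3 and KLHL15 (both 0.96). DUSP4 ran closest to MED8 (0.83), NQO2 and CIP2A (both 0.80), and DUSP7 to MRGBP and LMNB1 (both 0.90) and ARHGAP11A (0.89). DUSP10 ran closest to SLC38A2 (0.95), PHKA1 (0.94) and IARS2 (0.93), and DUSP16 to PMEL (0.94), QRICH2 and PI3 (both 0.92). Among the members themselves, DUSP2 and DUSP5 were closest to each other (0.94), DUSP6 and DUSP10 likewise (0.91), and DUSP7 was not close to any, with at most 0.21 (DUSP6).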

How the data were processed

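RNA-Seq of 24 libraries was analysed, with 3 replicates in each of 8 groups taken from the sample labels. The authors deposited raw counts per gene, whole numbers without normalization, for 57500 Ensembl identifiers. Libraries were directional. The submitters' processing notes name bcl2fastq, DESeq2 and the mouse build mm9, although the identifiers are human. The aligner, the counting program, its strand setting and the annotation are not given in the sources used here, so reads of antisense genes that overlap DUSP1, DUSP6, DUSP8 and DUSP16 (4 to 280 counts over all libraries) may be split uncertainly. The authors' normalized tables were not used. GENCODE v29 named 56898 identifiers, and the 602 others held 0.0217% of counts and stayed in the library sizes and tests. Only control columns recur between tables, and their 18 repeats were identical. Replicates differed by more than sampling noise (chi-square per gene of at least 3.51).

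The quasi-likelihood test of edgeR 4.0.16 (R 4.3.3) was run on these counts, with TMM scaling, filterByExpr at a minimum count of 10 and Benjamini-Hochberg adjustment over all genes tested. There were 14 comparisons, each with only its own 6 or 12 libraries. The SE of a fitted value was its absolute size over the root of its F statistic. The fitting code was tested on simulated data. Whether replicate numbers pair libraries was checked by correlating deviations of log2 (CPM + 1) from group means over the genes tested. Same-numbered libraries correlated at 0.24 to 0.69 in FaDu and 0.18 to 0.41 in SAS spheroids, interactions included, except 0.05 to 0.27 for HT against control in SAS spheroids, alone or in the interaction, and -0.04 to 0.14 between the controls of the 2 spheroid types. In these exceptions blocked fits are used only in the closing section on processing and, for the HT interaction, for the members that did not pass with or without the block. In FaDu spheroids, libraries numbered 2 and 3 also correlated with each other (0.20 to 0.33), so the check sets replicate 1 apart and does not show that 2 and 3 pair. Depth limits DUSP8 most, and intervals of count ratios cover counting error only.

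The members, the gene lists and the tests were chosen with earlier results of these data known. The rule for named genes was all 9 members in every comparison (some given only by range, and most in the RT interaction only by count), counts and medians for the lists with their altered members and those at the ends, and the 3 genes most alike to each member. Values of MAPK7, MAPK14, MAP2K3, MAP2K4, DUSP3, STYX and PPP2CB were named after they were seen. Alternatives were RLE scaling, the Wald test of DESeq2 1.42.0, keeping genes with low counts, all 24 libraries in 1 fit, the replicate block, adjusted p alone and each library left out in turn. Leaving out both FaDu replicate 1 libraries was added after seeing the data.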

Additional observations from a re-analysis of the deposited data

Results flagged for a closer look

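The change after heating differed between FaDu and SAS spheroids for 3 members, by the interaction term of edgeR. For HT against control, the log2 fold change in FaDu exceeded that in SAS spheroids by 2.95 for DUSP1, 2.24 for DUSP2 and 1.32 for DUSP5. For HT + RT against control the differences were 3.26 for DUSP1, 2.14 for DUSP2 and 1.73 for DUSP5, from the same control libraries. In each case the FaDu controls were lower than the SAS controls.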

How the results depend on the processing

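Without the low-count filter, 2 members were altered by RT in FaDu spheroids in place of 0, among 28 genes in place of 1. Also without it, 5 and 1 members differed between spheroid types in their HT and RT change in place of 3 and 0. Over all genes, 6 then differed in their RT change in place of 0. For RT in FaDu spheroids, 1 member was altered with all 24 libraries in 1 fit, with the replicate block and with both FaDu replicate 1 libraries left out. Over all genes, those settings altered 12, 28 and 15. For the difference in RT change, 1 member was called with the block and without both FaDu replicate 1 libraries, where 2 genes and 1 gene were called over all. At the adjusted p alone, 8 members passed for HT in SAS spheroids in place of 4. Without the low-count filter more members also passed at the adjusted p: DUSP4 in every HT or HT + RT comparison against control or RT in both spheroid types, DUSP6 and DUSP7 for HT + RT against RT and DUSP7 for HT + RT against control in FaDu spheroids, DUSP5 for HT + RT against RT in SAS spheroids, DUSP10 for HT + RT against HT in both, DUSP1, DUSP2, DUSP4, DUSP5 and DUSP6 for RT in FaDu and DUSP6 for RT in SAS spheroids, DUSP1 (2.20) for the difference in RT change between spheroid types, DUSP6, DUSP7 and DUSP8 (-2.33) for that in HT change, and DUSP6 (1.22) and DUSP7 (0.54) for that in HT + RT change. In that setting DUSP1 for RT in FaDu spheroids kept its log2 fold change of 1.97. Its edgeR adjusted p went from 0.39 to 2.7e-79, although its RT libraries spread from 25 to 96.4 CPM. The passes without the filter thus mark a dependence on this setting and are not counted as further support. The cause of these shifts was not tested. Leaving out each library in turn gave 0 to 1 altered members for RT in either spheroid type, 4 to 5 for HT, HT + RT and HT + RT against RT in FaDu spheroids, 6 to 7 between controls, and, for the difference between spheroid types, 0 to 1 (RT) and 3 to 4 (HT and HT + RT); in the other comparisons the count of altered members did not move. No called member reversed its direction under any setting, and 75 sign changes concerned members that were called neither before nor after. For HT in SAS spheroids, where numbers did not pair the libraries, the block gave 4 altered members as before and DUSP4 passed (0.72); for the interaction with HT it called 4 in place of 3, adding DUSP6 (1.51). Between controls the block called 6 in place of 7. Beyond the members, with the block RT altered 28 genes in place of 1 in FaDu spheroids and 25 in place of 4 in SAS spheroids, and without the filter HT altered 1382 in place of 789 in FaDu spheroids. Depth limits DUSP8 in SAS controls, with 3 counts in all.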
